A study of Caenorhabditis elegans with 24 samples.

Results

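Messenger RNA of Caenorhabditis elegans embryos was compared between 270 and 330 min after the 4-cell stage, gene by gene and library by library. The series holds 24 libraries, 3 at each of 8 stages from 60 to 500 min, and the comparison uses the 3 labelled stage 5 (270 min) and the 3 labelled stage 6 (330 min), 6 of the 24. All embryos were of the wild-type strain N2, taken by mouth pipette from adults that had been cut open, with no treatment, and each library held the RNA of 50 pooled embryos. RNA was measured by CEL-Seq, which tags and reads the 3′ end of polyadenylated transcripts, so isoforms with a common end give one value. The labels give no tissue other than whole embryo, and in such bulk samples a higher share of cells of a type and more RNA per cell cannot be told apart. They do not say whether replicates came from separate cultures, so the p-values measure only the spread between these samples. The running sample number in the labels is shared by the first 2 libraries of each stage, while replicate 3 has its own. The counts of replicates 1 and 2 differed by more than sampling noise, with a chi-square per degree of freedom of 3.23 at 270 min and 4.13 at 330 min, so they entered as separate samples.

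In this interval the worm embryo passes from a ball of still dividing cells to an elongating body. The last rounds of embryonic cell division end, the epidermis closes over the ventral side, and body wall muscle cells build the sarcomeres with which the embryo later twitches. Muscle force reaches the outer surface through hemidesmosomes of the epidermis, and a temporary apical matrix precedes the first cuticle.

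Worm counts per library ran from 320318 to 608283 at 270 min and from 380018 to 977908 at 330 min, and 9019 to 11931 genes had at least 1 count. Levels are given as CPM, counts scaled to a common library total with edgeR's TMM factors. A single count stood for 0.889 to 2.95 CPM. Where a library has 0 counts, up to 3 may have been missed, which is 2.67 to 8.86 CPM. Tissue markers of the embryo were present in all 6 libraries. The summed level of 4 muscle markers (myo-3, unc-54, hlh-1 and unc-15) was 168, 176 and 481 CPM in replicates 1, 2 and 3 of 270 min and 933, 1270 and 850 CPM in those of 330 min. The 5 epidermal markers summed to 2210 to 2950 CPM, the 4 intestinal to 366 to 752 CPM, the 3 pharyngeal to 709 to 1390 CPM and the 4 neuronal to 7.51 to 60.8 CPM. Transcripts of adult tissue differed between libraries of the same stage. The 6 vitellogenins (yolk protein genes of the adult intestine) summed to 5.91, 689 and 135 CPM at 270 min and to 0, 1150 and 339 CPM at 330 min. The 3 oocyte and germline markers stayed at 11.8 to 44.2 CPM, the adult collagen col-19 at 0 to 15 CPM and the sperm genes at 0 to 13.1 CPM, with counts for 12 of 27. The part of adult RNA in the results was not tested.

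The 3 libraries of a stage were not at the same point of development. Each was placed on the line from the mean profile of the 225 min libraries, set to 0, to that of the 410 min libraries, set to 1, both of which lie outside the comparison. The 270 min libraries of replicates 1, 2 and 3 stood at 0.21, 0.232 and 0.349, and the 330 min libraries at 0.525, 0.579 and 0.457. The stages did not overlap on this line, with means of 0.264 ± 0.075 (SD, n = 3) and 0.52 ± 0.061 (SD, n = 3). Replicate 3 had the latest of the 270 min libraries and the earliest of the 330 min libraries, so its 2 libraries lay closest together. Rank correlations across genes followed these positions only in part. Spearman's rank correlation was 0.975 between the 2 libraries of replicate 3, above the 0.939 to 0.962 found between libraries of the same stage, and it fell to 0.863 between 270 min replicate 1 and 330 min replicate 2. The pair of 270 min replicate 3 and 330 min replicate 1 lay closer on the line than that of 270 min replicate 2 and 330 min replicate 3. Its correlation was 0.943, against 0.946 for the latter. Replicate 3 was also the deepest library of each stage, with 608283 and 977908 worm counts, and the part of depth was not tested. Genes are not independent replicates, so these values describe the libraries and carry no test.

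**Figure D1:**
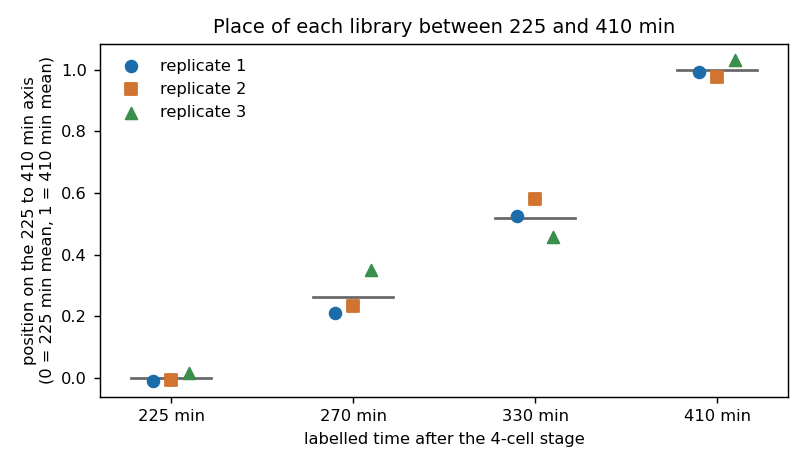
Position of each of the 12 libraries of 225, 270, 330 and 410 min on the axis from the 225 min mean (0) to the 410 min mean (1), by labelled time. Points are libraries with the replicate given by colour and shape, and grey bars are stage means. At 270 min replicate 3 is the highest point (0.349) and at 330 min it is the lowest (0.457).

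More transcripts rose than fell between 270 and 330 min. Of 8279 genes tested, 511 (6.17%) were higher and 123 (1.49%) were lower at 330 min, at an adjusted p below 0.05 in edgeR's quasi-likelihood test with Benjamini-Hochberg adjustment over all genes. Among called genes the gains were larger than the losses. For those with more than 3 counts in each stage, the median log2 change was 1.73 for 464 genes called higher and -1.08 for 121 called lower, against 0.05 for all genes tested. A gene with few counts needs a larger change to be called. The part of expression level in these sizes was not tested. The 3 libraries of each stage did not overlap for 503 of the 511 and 119 of the 123 genes, while 15.4% of all tested genes were separated upwards in this way and 7.74% downwards. An unadjusted p below 0.05 was found for 18.3% of all tested genes. Among the gene lists, those of muscle, of epidermal attachments and matrices, of gap junctions, glia and cilia held most of the members that rose, and those of the cell cycle most of the members that fell. Of the called genes, 400 of the 511 and 86 of the 123 were in none of the 39 lists.

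The replicate libraries did not contribute equally. In 426 of the 511 genes called higher (83.4%), replicate 3 was the 270 min library nearest to the 330 min mean, against 44.1% of all genes tested. In 359 of them (70.3%), replicate 3 was also the 330 min library nearest to the 270 min mean, against 45.9% of all genes tested. For the genes called lower these shares were 52.8% and 76.4%. The median log2 distance of the genes called higher from the 330 min mean was 2.01 and 1.83 for replicates 1 and 2 of 270 min and 1.05 for replicate 3. The calls rested most on replicate 2. Leaving out its 8 libraries left 9 genes higher and 3 lower, with 818 at an unadjusted p below 0.05, whereas leaving out replicate 1 left 211 and 30, and leaving out replicate 3 left 507 and 113. Leaving out only the 270 and 330 min libraries of replicate 1 left 153 higher and 18 lower, of replicate 2 85 and 15, and of replicate 3 605 and 198. Of the 101 genes that the naming rule gives, 9 were still called without replicate 2, namely hum-6, F41C3.11, hsp-12.2, zyx-1, fhod-1, acn-1, cyd-1, cht-1 and sex-1. None of the 101 changed direction in any alternative fit. Naming required stages without overlap, so leaving out libraries could hardly reverse them, and this is no test of direction.

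**Figure D2:**
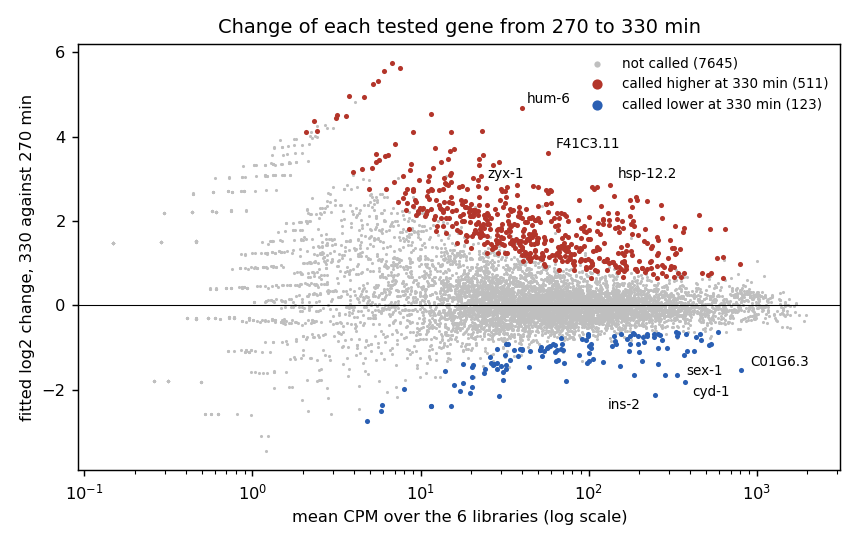
Fitted log2 change from 270 to 330 min (vertical axis) against the mean CPM of the 6 libraries (log scale, horizontal axis) for each tested gene. Red points are the 511 genes called higher and blue points the 123 called lower; red points reach further from 0 than blue ones, and those at the far left of the plot rest on few counts.

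The stages on either side, which share no library with the comparison, moved the same way. At 410 min against 225 min, 2594 genes (31.3%) were called higher and 1939 (23.4%) lower. Of the 511 genes higher at 330 min, 503 (98.4%) were also called higher at 410 than at 225 min, 0 were called lower and 8 were not called. Of the 123 genes lower at 330 min, 114 (92.7%) were also called lower, 6 were not called and 3 went the other way. Those 3, named after their values were seen, were C25E10.12, hot-4 and dod-6. In dod-6 the 6 libraries stood at 32.5, 45 and 48.3 CPM at 270 min and 20.6, 22.1 and 24 CPM at 330 min (log2 change -0.92 ± 0.29 SE, adjusted p = 0.0372), so the stages did not overlap. The means of dod-6 on either side (SD, n = 3) were 52.6 ± 5.18 CPM for 225 min and 334 ± 45.4 CPM for 410 min.

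Among the 10 largest rises were an unconventional myosin, a small heat shock protein and components of muscle attachments. Values are listed for replicates 1, 2 and 3 in that order throughout. The largest of these 10 rises was that of hum-6 (chrX:2303082-2314914 in the WBcel235 annotation), a heavy chain of the unconventional myosin family. It stood at 0, 0 and 6.23 CPM at 270 min and 73.9, 111 and 48.9 CPM at 330 min (log2 change 4.68 ± 0.57 SE, adjusted p = 5.32e-05). F41C3.11 (chrII:4731178-4733948), known only by its sequence name, stood at 0, 0 and 20.2 CPM at 270 min and 94.5, 152 and 78.2 CPM at 330 min (log2 change 3.61 ± 0.52 SE, adjusted p = 0.000125). In both genes replicates 1 and 2 of 270 min had no count, replicate 3 had a few, and every 330 min library lay above them. A gene of the small heat shock proteins, hsp-12.2 (chrIII:8138077-8139631), stood at 17.7, 20.6 and 51.4 CPM at 270 min and 249, 315 and 153 CPM at 330 min (log2 change 2.86 ± 0.39 SE, adjusted p = 0.000105). The zyxin gene zyx-1 (chrII:13056910-13071513), whose product sits at muscle attachment sites, stood at 2.95, 9.38 and 20.2 CPM at 270 min and 120, 83 and 64 CPM at 330 min (log2 change 2.81 ± 0.44 SE, adjusted p = 0.000166). Neither gene overlapped between stages, and replicate 3 was the highest library of 270 min and the lowest of 330 min in both. The remaining rises of this group had log2 changes of 3.40 for F57B1.6, 3.33 for lido-15, 2.86 for ZK836.3, 2.82 for B0393.5, 2.81 for the copine-domain gene cpna-2 and 2.80 for Y41D4B.6. The exons of hum-6, F57B1.6, ZK836.3, hsp-12.2, B0393.5 and cpna-2 overlap another annotated gene, and since the strand of counting is not given, their values are uncertain in this respect. Names that are marked as overlapping below have the same limit.

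The 10 largest falls, ranked by the same rule, were smaller. Called genes outside the rule were not ranked, such as tbx-9 with a log2 change of -2.09. The insulin-like peptide gene ins-2 (chrII:5988524-5989426) stood at 402, 467 and 368 CPM at 270 min and 27.5, 22.1 and 200 CPM at 330 min (log2 change -2.12 ± 0.52 SE, adjusted p = 0.0188). Replicate 3 of 330 min lay far above the other two libraries of its stage. The cyclin D gene cyd-1 (chrII:12980591-12993117), which drives entry into the cell cycle, stood at 671, 559 and 526 CPM at 270 min and 139, 96.8 and 245 CPM at 330 min (log2 change -1.81 ± 0.26 SE, adjusted p = 6.98e-05). The nuclear receptor gene sex-1 (chrX:10201329-10205421), which takes part in counting X chromosomes for sex determination, stood at 650, 456 and 434 CPM at 270 min and 115, 116 and 242 CPM at 330 min (log2 change -1.65 ± 0.24 SE, adjusted p = 8.85e-05). In cyd-1 and sex-1 the lowest 270 min library was well above the highest 330 min library, which was replicate 3. Y82E9BR.17 (chrIII:1447494-1455774) stood at 254, 377 and 232 CPM at 270 min and 30.9, 69.1 and 157 CPM at 330 min (log2 change -1.65 ± 0.40 SE, adjusted p = 0.0126). The other falls were -1.80 for hmg-6, -1.65 for the chitinase gene cht-1, -1.53 for C01G6.3, -1.47 for the Snail-type zinc finger gene ces-1, -1.43 for the acyl-CoA dehydrogenase gene acdh-2 and -1.40 for atz-1 on the log2 scale, and the exons of all 6 overlap another gene. In C01G6.3 the highest library held 706 counts. No value in the count table exceeds 1023, so large counts may be understated.

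Many genes of the contractile apparatus of muscle rose. Of 13 tested thick filament genes 8 were called higher, of 23 thin filament genes 7, of 18 attachment and dense body genes 7 and of 18 genes of excitation and calcium handling 9, and no member of these lists was called lower. These are 61.5%, 30.4%, 38.9% and 50.0% of the lists, against 6.17% of all genes tested. Their median log2 changes were 1.87, 0.65, 0.50 and 1.35. Body wall muscle contracts by sliding myosin thick filaments along actin thin filaments that are anchored at dense bodies. Paramyosin (unc-15), a core component of thick filaments, stood at 5.91, 37.5 and 143 CPM at 270 min and 368, 473 and 311 CPM at 330 min (log2 change 2.47 ± 0.55 SE, adjusted p = 0.009). The myosin heavy chain gene myo-3 stood at 23.6, 30 and 128 CPM at 270 min and 191, 442 and 236 CPM at 330 min (log2 change 2.12 ± 0.49 SE, adjusted p = 0.0108). The gene unc-89, which encodes a giant protein of the M-line, stood at 20.7, 20.6 and 45.2 CPM at 270 min and 168, 96.8 and 102 CPM at 330 min (log2 change 2.01 ± 0.39 SE, adjusted p = 0.0013). In all 3 genes replicate 3 of 270 min was the highest of its stage and, as naming required, below every 330 min library. The myosin light chain gene mlc-1 had a log2 change of 2.33; it overlaps another gene, and mlc-2 is a near-identical copy between which the counting could split reads.

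Among the thin filament genes that averaged at least 50 CPM at 330 min, those of troponin and tropomodulin gave the leading rises. The 4 actin genes did not pass. At a lower level, 36.5 CPM on average at 330 min, atn-1 was also called higher (log2 change 2.27 ± 0.53 SE, adjusted p = 0.00467). Troponin T (mup-2), which ties the calcium switch to tropomyosin, stood at 14.8, 43.2 and 182 CPM at 270 min and 464, 581 and 328 CPM at 330 min (log2 change 2.38 ± 0.59 SE, adjusted p = 0.017). Tropomodulin (tmd-2), which caps actin filaments, stood at 20.7, 26.3 and 99.7 CPM at 270 min and 232, 218 and 198 CPM at 330 min (log2 change 2.02 ± 0.33 SE, adjusted p = 0.000311). The troponin I gene tni-1 stood at 79.8, 93.8 and 297 CPM at 270 min and 524, 769 and 462 CPM at 330 min (log2 change 1.83 ± 0.30 SE, adjusted p = 0.000368). A further troponin T gene, tnt-3, had a log2 change of 1.88. All 4 had their lowest value in replicate 1 of 270 min, and, as naming required, no library of one stage reached the range of the other. The actin genes act-1, act-2, act-3 and act-4, near-identical copies between which reads could be split, had log2 changes of -0.15, 0.02, 0.12 and -0.02. The most abundant, act-4 (overlapping), stood at 2030, 1530 and 1470 CPM at 270 min and 1660, 2440 and 899 CPM at 330 min, with overlapping stages. In replicate 3 of 330 min its count was near the upper limit of the count table given above, so this level may be understated. The small change of act-4 and its overlap between stages are uncertain in this respect. The troponin I genes tni-3 and tni-4 were barely detected. The tni-3 libraries stood at 2.95, 0 and 0 CPM at 270 min and 3.44, 0 and 1.78 CPM at 330 min. Those of tni-4 stood at 0, 1.88 and 0 CPM at 270 min and 0, 11.1 and 1.78 CPM at 330 min.

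At attachment sites part of the genes rose and the integrin core did not pass. Besides zyx-1, the perlecan gene unc-52 (overlapping), the basement membrane anchor of muscle, stood at 23.6, 20.6 and 85.7 CPM at 270 min and 225, 227 and 196 CPM at 330 min (log2 change 2.20 ± 0.35 SE, adjusted p = 0.00028). The vinculin gene deb-1 (overlapping) stood at 47.3, 48.8 and 181 CPM at 270 min and 385, 384 and 259 CPM at 330 min (log2 change 1.81 ± 0.33 SE, adjusted p = 0.000941). The immunoglobulin-domain gene dim-1 stood at 47.3, 73.2 and 150 CPM at 270 min and 280, 401 and 234 CPM at 330 min (log2 change 1.67 ± 0.27 SE, adjusted p = 0.000166). In these genes the 330 min libraries lay above all 270 min libraries, as naming required. The beta integrin gene pat-3 stood at 514, 379 and 562 CPM at 270 min and 510, 462 and 414 CPM at 330 min (adjusted p = 0.941). The genes unc-97 and pat-4, of the complex bound to integrin, had log2 changes of 0.24 ± 0.18 SE and 0.23 ± 0.23 SE.

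Some genes that couple membrane signals to contraction rose from low levels. The summed level of the list was 1310, 1270 and 1610 CPM at 270 min and 1980, 1890 and 1510 CPM at 330 min, so the stages overlapped through replicate 3. The L-type calcium channel gene egl-19 (overlapping) stood at 0, 0 and 24.9 CPM at 270 min and 85.9, 74.7 and 40.9 CPM at 330 min (log2 change 2.62 ± 0.55 SE, adjusted p = 0.00362). It had no count in replicates 1 and 2 of 270 min. The ryanodine receptor gene unc-68, the calcium release channel of the sarcoplasmic reticulum, stood at 68, 24.4 and 60.7 CPM at 270 min and 222, 133 and 101 CPM at 330 min (log2 change 1.58 ± 0.33 SE, adjusted p = 0.00175). Replicate 1 was its highest library in each stage. The log2 change was 2.27 for the potassium channel gene slo-1 (overlapping) and 1.35 for ric-3, whose product helps acetylcholine receptors to mature. The acetylcholine receptor gene unc-38 was called with 0 counts in the 270 min libraries and 25 counts in those of 330 min, too few for a fold. Of 12 tested regulators of mesoderm and muscle fate 0 were called higher in edgeR, with 0 at an unadjusted p below 0.05. The 1 called lower is 8.33% of the list, against 1.49% of all genes tested. DESeq2 also called 0 higher. The MyoD homologue hlh-1 (overlapping) stood at 97.5, 73.2 and 76.3 CPM at 270 min and 56.7, 41.5 and 73.8 CPM at 330 min (adjusted p = 0.488). The serum response factor gene unc-120 stood at 316, 388 and 498 CPM at 270 min and 429, 456 and 408 CPM at 330 min (adjusted p = 0.983). Without replicate 2, 0 of the 8 thick filament, 0 of the 7 thin filament, 1 of the 7 attachment and 0 of the 9 excitation genes were called, and without replicate 1 these counts were 3, 4, 2 and 3.

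**Figure D3:**
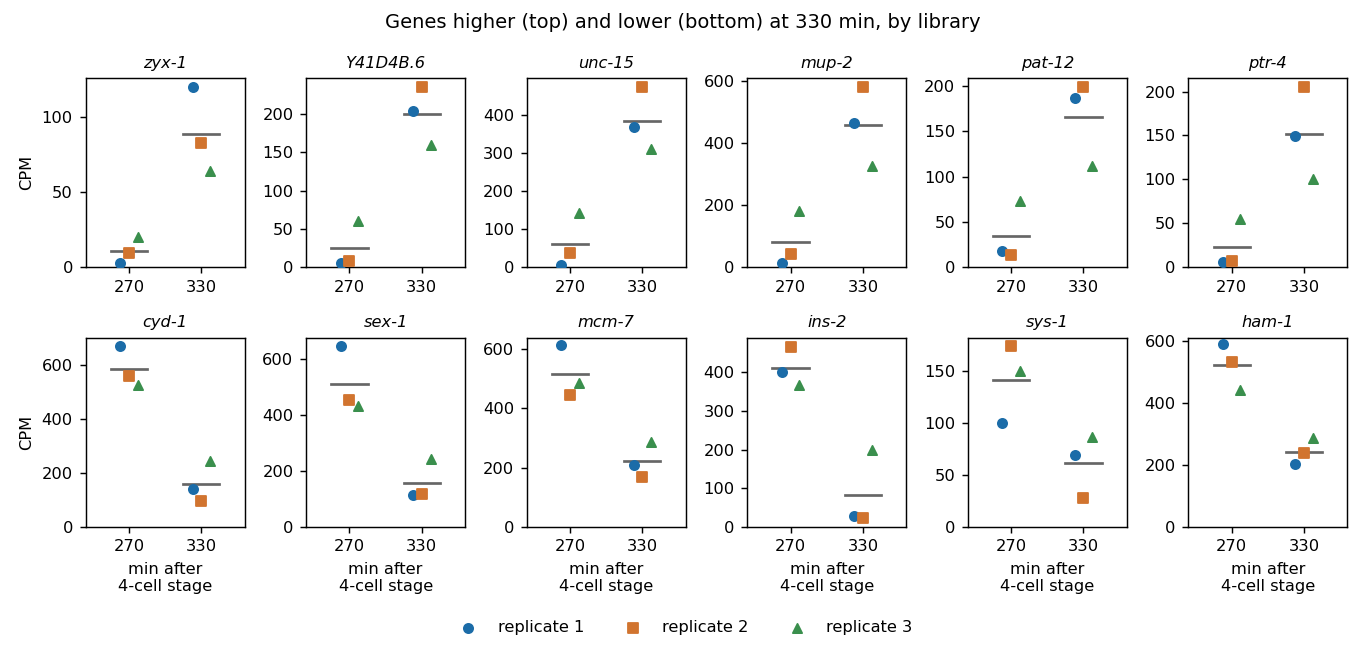
CPM of 12 named genes in each library at 270 and 330 min (points by replicate, grey bars are means, each vertical axis starts at 0). In the upper row replicate 3 is the highest 270 min library and the lowest 330 min library of every gene shown, as in unc-15 with 143 and 311 CPM.

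In the epidermis, part of the genes of the attachment structures rose, and no gene of the apical junction passed. Of 19 tested genes of the hemidesmosome list 9 were called higher, 47.4% against 6.17% of all genes tested, with a median log2 change of 0.65. One of the 9, daf-10, is a gene of intraflagellar transport and not of hemidesmosomes, and it rested on 3 counts at 270 min and 27 at 330 min. The hemidesmosome gene pat-12 stood at 17.7, 13.1 and 73.2 CPM at 270 min and 187, 199 and 112 CPM at 330 min (log2 change 2.09 ± 0.37 SE, adjusted p = 0.000607). The intermediate filament gene ifa-3 stood at 29.5, 33.8 and 71.6 CPM at 270 min and 201, 249 and 148 CPM at 330 min (log2 change 2.04 ± 0.30 SE, adjusted p = 0.000122). The matrix receptor genes mua-3 and mup-4 encode proteins that span the membrane on the cuticle side. Of these, mua-3 stood at 41.4, 18.8 and 79.4 CPM at 270 min and 270, 152 and 169 CPM at 330 min (log2 change 2.03 ± 0.39 SE, adjusted p = 0.0013). The libraries of mup-4 stood at 14.8, 11.3 and 91.9 CPM at 270 min and 136, 180 and 132 CPM at 330 min (log2 change 1.76 ± 0.50 SE, adjusted p = 0.0372). In all 4 genes replicates 1 and 2 of 270 min were below replicate 3, and the stages did not overlap, as naming required. Of 19 apical junction genes 0 were called in edgeR (4 at an unadjusted p below 0.05, all higher), and DESeq2 called 1; the median log2 change was 0.04. The cadherin gene hmr-1 stood at 851, 736 and 828 CPM at 270 min and 974, 954 and 673 CPM at 330 min (adjusted p = 0.893). The scaffold gene dlg-1 stood at 869, 651 and 632 CPM at 270 min and 893, 459 and 615 CPM at 330 min (adjusted p = 0.87). The libraries of both stages were interleaved in both genes. Without replicate 2, 0 of the 9 hemidesmosome list genes were called, and without replicate 1 3 were.

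The actomyosin and spectrin genes that shape the elongating embryo had 3 of 30 members higher, 10% against 6.17% of all genes tested, and a median log2 change of 0.03. Of the 3, the formin gene fhod-1 stood at 14.8, 26.3 and 28 CPM at 270 min and 124, 133 and 86.2 CPM at 330 min (log2 change 2.20 ± 0.31 SE, adjusted p = 6.98e-05). The gene rga-2, which acts in elongation of the embryo, stood at 47.3, 48.8 and 87.2 CPM at 270 min and 146, 213 and 122 CPM at 330 min (log2 change 1.31 ± 0.27 SE, adjusted p = 0.00155). The beta-spectrin gene unc-70 (overlapping) had a log2 change of 0.68. Both fhod-1 and rga-2 were higher in every 330 min library than in any of 270 min, as naming required.

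Genes of the extracellular matrices rose in part. Of 19 cuticle collagen and assembly genes 6 were called higher (31.6% against 6.17% of all genes tested, median log2 change 0.36), and of 21 pre-cuticle matrix genes 5 (23.8%, median 1.00, or 0.68 with genes at 0 counts held at their bound). Of 30 patched- and hedgehog-related genes 8 were higher (26.7%, median 1.20, or 1.17 at the bounds), and of 24 basement membrane genes 5 were, with 1 lower (median 0.37). The collagen genes dpy-2 and dpy-3 belong to the furrows of the cuticle. Of these, dpy-2 stood at 130, 191 and 259 CPM at 270 min and 369, 653 and 359 CPM at 330 min (log2 change 1.21 ± 0.27 SE, adjusted p = 0.00376). The values of dpy-3 were 127, 95.7 and 167 CPM at 270 min and 476, 296 and 239 CPM at 330 min (log2 change 1.36 ± 0.33 SE, adjusted p = 0.00969). In the pre-cuticle matrix, lpr-5 encodes a lipocalin-related protein and dyf-7 a zona pellucida domain protein needed to anchor sensory dendrites. The libraries of lpr-5 stood at 8.86, 7.51 and 23.4 CPM at 270 min and 58.4, 77.4 and 39.1 CPM at 330 min (log2 change 1.92 ± 0.39 SE, adjusted p = 0.00144). Those of dyf-7 stood at 44.3, 31.9 and 68.5 CPM at 270 min and 173, 163 and 111 CPM at 330 min (log2 change 1.58 ± 0.28 SE, adjusted p = 0.000594). All 4 separated the stages without overlap, as naming required. The collagen gene dpy-17, one of the most abundant, did not pass, at 1680, 1350 and 1370 CPM at 270 min and 1610, 2440 and 875 CPM at 330 min (adjusted p = 0.899). Its highest library held 984 counts, next to the limit of 1023.

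Patched-related proteins are membrane proteins of which many act at apical surfaces, and worm hedgehog-related proteins are secreted. The patched-related gene ptr-4 stood at 5.91, 7.51 and 54.5 CPM at 270 min and 149, 205 and 100 CPM at 330 min (log2 change 2.49 ± 0.45 SE, adjusted p = 0.00175). The hedgehog-related gene qua-1 stood at 8.86, 5.63 and 37.4 CPM at 270 min and 94.5, 88.5 and 65.8 CPM at 330 min (log2 change 2.06 ± 0.40 SE, adjusted p = 0.00155). Replicate 3 of 270 min held several times the level of its other two libraries in both genes and remained below every 330 min library. In the basement membrane, the collagen IV gene emb-9 stood at 139, 171 and 241 CPM at 270 min and 374, 525 and 333 CPM at 330 min (log2 change 1.13 ± 0.24 SE, adjusted p = 0.00241). The nidogen gene nid-1 and the agrin gene agr-1 (overlapping) had log2 changes of 0.76 and 2.17. The glypican gene lon-2, a membrane proteoglycan that restrains TGF-beta signalling, fell, with 70.9, 91.9 and 103 CPM at 270 min and 27.5, 27.7 and 60.4 CPM at 330 min (log2 change -1.10 ± 0.31 SE, adjusted p = 0.0188). Replicate 3 of 330 min was again nearest to the 270 min range. Of 16 molting regulators 4 rose (25% against 6.17% of all genes tested). Among them was acn-1 (overlapping), related to angiotensin-converting enzyme, at 26.6, 41.3 and 76.3 CPM at 270 min and 170, 235 and 187 CPM at 330 min (log2 change 1.94 ± 0.26 SE, adjusted p = 5.32e-05). Without replicate 2 the counts of higher genes were 0 for the cuticle, pre-cuticle, patched-related and basement membrane lists and 1 for the molting list.

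Regulators of epidermal fate gave 2 higher and 1 lower of 19 (15.8% called in either direction, against 7.66% of all genes tested). The GATA factor gene elt-3, expressed in most of the epidermis after its fate is set, stood at 118, 88.2 and 125 CPM at 270 min and 223, 169 and 182 CPM at 330 min (log2 change 0.80 ± 0.23 SE, adjusted p = 0.0219). The epidermal fate genes elt-1 and lin-26 (overlapping) did not pass, at log2 changes of -0.59 ± 0.27 SE and 0.47 ± 0.22 SE. In the pharynx list 4 of 17 were higher (23.5% against 6.17% of all genes tested, median log2 change 0.98). The homeobox gene ceh-2 stood at 8.86, 5.63 and 24.9 CPM at 270 min and 84.2, 77.4 and 53.3 CPM at 330 min (log2 change 2.28 ± 0.39 SE, adjusted p = 0.000279). The DNA-binding protein gene peb-1 stood at 109, 99.4 and 171 CPM at 270 min and 266, 376 and 179 CPM at 330 min (log2 change 1.06 ± 0.27 SE, adjusted p = 0.011). Its selector gene pha-4 stood at 1370, 852 and 1010 CPM at 270 min and 1090, 907 and 660 CPM at 330 min (adjusted p = 0.614). Of 26 intestinal genes 3 were higher (11.5%), including the intermediate filament gene ifb-2 at 11.8, 20.6 and 67 CPM at 270 min and 101, 171 and 82.7 CPM at 330 min (log2 change 1.63 ± 0.39 SE, adjusted p = 0.00723). Both ceh-2 and ifb-2 separated the stages, as naming required, whereas pha-4 overlapped. The endoderm regulator elt-2 stood at 53.2, 46.9 and 285 CPM at 270 min and 36.1, 77.4 and 53.3 CPM at 330 min (adjusted p = 0.558), with replicate 3 of 270 min the highest library.

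Gap junction and claudin-like genes rose in 7 of 20 cases (35% against 6.17% of all genes tested, median log2 change 0.70). Innexins form gap junctions in invertebrates. The libraries of inx-15 stood at 145, 199 and 234 CPM at 270 min and 421, 393 and 293 CPM at 330 min (log2 change 0.91 ± 0.25 SE, adjusted p = 0.0152). Those of inx-16, an innexin known from intestinal contraction, stood at 68, 58.2 and 109 CPM at 270 min and 182, 196 and 129 CPM at 330 min (log2 change 1.05 ± 0.28 SE, adjusted p = 0.0131). Both separated the stages, as naming required. The excretory list gave 4 of 16 higher (25%), among them inx-12, an innexin of the excretory cell, at 210, 208 and 238 CPM at 270 min and 429, 354 and 285 CPM at 330 min (log2 change 0.69 ± 0.21 SE, adjusted p = 0.0372). Without replicate 2, 0 of these gap junction, claudin and excretory genes were called.

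No pan-neuronal or synaptic gene passed. Of 34 pan-neuronal and synaptic genes 0 were called in edgeR, 12 were at an unadjusted p below 0.05 (all higher), and DESeq2 called 0; the median log2 change was 0.28. The vesicle genes were near the limit of detection, with rab-3 (overlapping) at 2.95, 1.88 and 6.23 CPM at 270 min and 20.6, 22.1 and 8.89 CPM at 330 min (adjusted p = 0.0576). The synaptotagmin gene snt-1 stood at 5.91, 0 and 0 CPM at 270 min and 1.72, 2.77 and 0 CPM at 330 min. Of 39 axon guidance and migration genes 8 were higher (20.5% against 6.17% of all genes tested, median 0.38). They were led by zig-4, which encodes a secreted immunoglobulin-domain protein that keeps axons in place in the ventral cord. Its libraries stood at 2.95, 5.63 and 140 CPM at 270 min and 388, 324 and 282 CPM at 330 min (log2 change 2.57 ± 0.63 SE, adjusted p = 0.0154). Replicates 1 and 2 of 270 min were near 0 in zig-4, and replicate 3 stood between them and the 330 min libraries. Of 19 neuropeptide genes 1 was higher, which at 5.26% is near the share of all genes tested. It was flp-10, at 8.86, 0 and 28 CPM at 270 min and 92.8, 52.5 and 48 CPM at 330 min (log2 change 2.22 ± 0.50 SE, adjusted p = 0.00468).

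Fate regulators of neurons went both ways. Of 27 terminal selectors and fate genes 4 were higher and 3 lower (25.9% called in either direction). Of 18 proneural and SoxB-list genes 2 were higher and 3 lower (27.8%), against 7.66% of all genes tested. The lists share members, and egl-13 is counted in both. The ETS factor gene ast-1 (overlapping), which specifies dopamine neurons, stood at 8.86, 1.88 and 62.3 CPM at 270 min and 184, 232 and 156 CPM at 330 min (log2 change 2.77 ± 0.45 SE, adjusted p = 0.000467). The zinc finger gene egl-46 stood at 112, 144 and 268 CPM at 270 min and 474, 564 and 358 CPM at 330 min (log2 change 1.37 ± 0.25 SE, adjusted p = 0.000691). The SoxD factor gene egl-13 stood at 2.95, 7.51 and 56.1 CPM at 270 min and 136, 119 and 80.9 CPM at 330 min (log2 change 2.08 ± 0.41 SE, adjusted p = 0.00175). The 330 min libraries of all 3 were above the 270 min libraries, as naming required. Among the genes that fell, ham-1, which acts in asymmetric neuroblast division, stood at 591, 533 and 442 CPM at 270 min and 204, 238 and 288 CPM at 330 min (log2 change -1.09 ± 0.22 SE, adjusted p = 0.00161). The SoxB gene sox-2 stood at 774, 630 and 640 CPM at 270 min and 275, 401 and 395 CPM at 330 min (log2 change -0.93 ± 0.22 SE, adjusted p = 0.00568). The Distal-less homologue ceh-43 stood at 349, 244 and 235 CPM at 270 min and 108, 96.8 and 166 CPM at 330 min (log2 change -1.10 ± 0.25 SE, adjusted p = 0.00448). In these 3 the stages did not overlap, as naming required, and replicate 1 was the highest 270 min library. Without replicate 2 none of these 6 was called.

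Some genes of cilia and glia rose from low levels. Of 42 cilia and intraflagellar transport genes 8 were higher (19% against 6.17% of all genes tested) and 21 had an unadjusted p below 0.05. The list's log2 changes had a median of 1.52, which became 1.30 when genes at 0 counts were held at their bound. The RFX factor gene daf-19 (overlapping), the master regulator of cilium genes, stood at 82.7, 97.6 and 216 CPM at 270 min and 263, 252 and 234 CPM at 330 min (log2 change 0.87 ± 0.25 SE, adjusted p = 0.0248). The kinesin-II gene klp-11 (overlapping) stood at 130, 78.8 and 131 CPM at 270 min and 246, 141 and 213 CPM at 330 min (log2 change 0.85 ± 0.25 SE, adjusted p = 0.027). Replicate 3 of 270 min stood close to the 330 min libraries in daf-19, and in klp-11 all libraries of 330 min were only just separated. Most target genes had few counts. The BBSome gene bbs-2 was called on 0 counts at 270 min and 11 at 330 min, dyf-5 on 1 and 31, and ift-20 on 1 and 21. The called count of this list depended on replicate 2 and replicate 3, with 0 higher without the former at 270 and 330 min and 15 without the latter. Of 13 glial genes 5 were higher (38.5%), among them the Prospero homologue pros-1 (overlapping) at 168, 201 and 287 CPM at 270 min and 423, 525 and 317 CPM at 330 min (log2 change 0.91 ± 0.23 SE, adjusted p = 0.00768). Its libraries did not overlap between stages, as naming required.

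**Figure D4:**
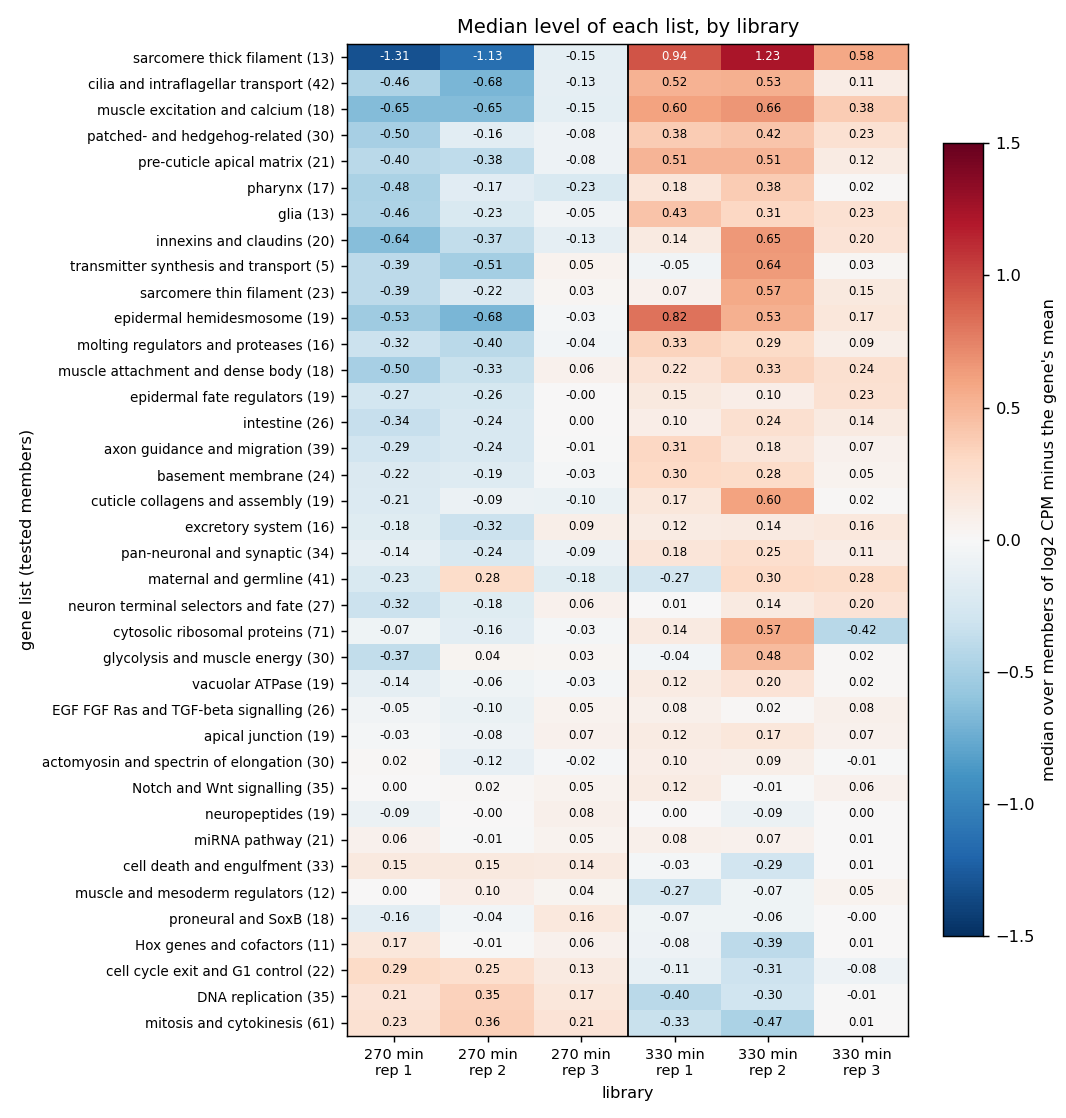
Median level of each gene list in the 6 libraries, as log2 CPM relative to each gene's mean over the 6, with the number of tested members in brackets. The list of adult carry-over (yolk and sperm genes) is not shown. Red is above and blue below that mean. Lists are ordered by median log2 change, from thick filament genes (-1.31, -1.13 and -0.15 at 270 min against 0.94, 1.23 and 0.58 at 330 min) to mitosis genes, and replicate 3 lies near 0 at both stages in most lists.

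Part of the cell cycle genes fell. Of 35 DNA replication genes 4 were lower and 34 had a negative log2 change (median -0.46), of 61 mitosis and cytokinesis genes 13 were lower and 55 negative (median -0.54), and of 22 genes of G1 control 4 were lower (median -0.34), with no member higher. These shares of called genes stand against 1.49% of all genes tested. The helicase subunit mcm-7 (overlapping), which opens DNA for replication, stood at 615, 445 and 486 CPM at 270 min and 208, 169 and 288 CPM at 330 min (log2 change -1.19 ± 0.25 SE, adjusted p = 0.00236). The licensing factor gene cdt-1 stood at 355, 225 and 229 CPM at 270 min and 206, 74.7 and 177 CPM at 330 min (log2 change -0.76 ± 0.24 SE, adjusted p = 0.0463). The flap nuclease gene crn-1 stood at 91.6, 71.3 and 48.3 CPM at 270 min and 29.2, 33.2 and 38.2 CPM at 330 min (log2 change -0.99 ± 0.31 SE, adjusted p = 0.0372). The mcm-7 libraries were widely separated and those of cdt-1 only narrowly.

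In mitosis, the cyclin A gene cya-1 (overlapping) stood at 225, 308 and 301 CPM at 270 min and 106, 160 and 189 CPM at 330 min (log2 change -0.86 ± 0.20 SE, adjusted p = 0.0044). The libraries of fzy-1, the activator of the anaphase-promoting complex, stood at 183, 116 and 111 CPM at 270 min and 67, 36 and 89.8 CPM at 330 min (log2 change -0.96 ± 0.28 SE, adjusted p = 0.0238). In both genes replicate 3 was the highest of the 330 min libraries. The gene ect-2, whose product starts the cleavage furrow, stood at 94.6, 63.8 and 76.3 CPM at 270 min and 46.4, 19.4 and 44.4 CPM at 330 min (log2 change -0.98 ± 0.31 SE, adjusted p = 0.0439). The values of mat-2, a subunit of the anaphase-promoting complex, were 82.7, 80.7 and 73.2 CPM at 270 min and 44.7, 30.4 and 41.8 CPM at 330 min (log2 change -0.97 ± 0.26 SE, adjusted p = 0.0161). All 4 genes separated the stages, as naming required. The major mitotic kinase gene cdk-1 did not pass, at 301, 463 and 339 CPM at 270 min and 198, 243 and 408 CPM at 330 min (adjusted p = 0.635). Of the G1 genes, the partner of cyclin D, cdk-4, fell with cyd-1, at 103, 76.9 and 73.2 CPM at 270 min and 53.2, 22.1 and 48 CPM at 330 min (log2 change -0.94 ± 0.29 SE, adjusted p = 0.0372). The Cip/Kip inhibitor gene cki-2 also fell, at 423, 428 and 397 CPM at 270 min and 237, 265 and 287 CPM at 330 min (log2 change -0.65 ± 0.19 SE, adjusted p = 0.0226). The related inhibitor gene cki-1 did not pass, at 1050, 925 and 925 CPM at 270 min and 917, 1130 and 720 CPM at 330 min (adjusted p = 0.934).

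The direction of the cell cycle lists depended less on the replicate than their calls. Their medians were negative in all alternative fits, from -0.18 to -0.67 for replication and from -0.23 to -0.80 for mitosis. For G1 control they ran from -0.07 to -0.58. Without replicate 2, 0 replication genes, 0 mitosis genes and 1 G1 gene were called, without replicate 1 the counts were 0, 2 and 1, and without the 270 and 330 min libraries of replicate 3 they were 8, 21 and 4. Scaling to the ERCC spike-ins instead of TMM shifted the median log2 change of all genes from 0.05 to 0.31, and then 0 genes were called lower, with 787 at an unadjusted p below 0.05 in either direction. In that scale the replication, mitosis and G1 medians were -0.18, -0.23 and -0.07, below the median of all genes.

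Cell death genes had 3 of 33 lower, 9.09% against 1.49% of all genes tested, and all 3 are known to act on which daughter cells die. The bZIP factor gene ces-2 stood at 836, 696 and 623 CPM at 270 min and 457, 470 and 461 CPM at 330 min (log2 change -0.63 ± 0.20 SE, adjusted p = 0.046). The kinase gene pig-1 stood at 103, 124 and 146 CPM at 270 min and 63.6, 66.4 and 91.5 CPM at 330 min (log2 change -0.73 ± 0.23 SE, adjusted p = 0.0455). The value of ces-1 (overlapping) is given among the largest falls. The death activator gene egl-1 did not pass, at 11.8, 26.3 and 43.6 CPM at 270 min and 91, 52.5 and 47.1 CPM at 330 min (log2 change 1.10 ± 0.38 SE, adjusted p = 0.0741), although its 330 min libraries lay above those of 270 min. The core gene ced-4 stood at 165, 109 and 101 CPM at 270 min and 82.4, 69.1 and 103 CPM at 330 min (adjusted p = 0.294). The stages separated in ces-2 and pig-1, as naming required, and overlapped in ced-4. Of 35 Notch and Wnt genes 2 were higher and 3 lower (14.3% called in either direction, against 7.66% of all genes tested). Among the lower ones were the beta-catenin genes sys-1 and wrm-1, both used in asymmetric divisions. The libraries of sys-1 stood at 100, 174 and 150 CPM at 270 min and 68.7, 27.7 and 86.2 CPM at 330 min (log2 change -1.13 ± 0.30 SE, adjusted p = 0.0144). The gene wrm-1 also fell (log2 change -0.64 ± 0.20 SE, adjusted p = 0.0409). The third, dsl-3, is related to Notch ligands and stood at 585, 525 and 525 CPM at 270 min and 299, 299 and 374 CPM at 330 min (log2 change -0.74 ± 0.19 SE, adjusted p = 0.0109). Of the EGF, FGF and TGF-beta list 3 of 26 were higher and 1 was lower (15.4% called). The lower one was lon-2, described with the basement membrane. Among the higher ones were the FGF gene let-756 (overlapping, log2 change 1.80) and the TGF-beta receptor gene sma-6 (1.53). The Hox gene ceh-13, a labial homologue, was the 1 of 11 Hox genes and cofactors called (9.09% lower, against 1.49% of all genes tested). It stood at 431, 462 and 515 CPM at 270 min and 261, 279 and 330 CPM at 330 min (log2 change -0.69 ± 0.22 SE, adjusted p = 0.0449). Under the spike-in scaling none of these falls was called.

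Few genes of the housekeeping lists were called. Of 71 cytosolic ribosomal protein genes 0 were called in edgeR, 0 were at an unadjusted p below 0.05 and DESeq2 called 0. Their median log2 change was 0.24, with library medians of -0.07, -0.16 and -0.03 at 270 min and 0.14, 0.57 and -0.42 at 330 min, and all 71 exceeded 500 counts in some library. The sign turned without replicate 2 (-0.10) and without its 330 min library alone (-0.03). Of 41 maternal and germline genes 0 were called in edgeR (2 at an unadjusted p below 0.05) and 0 in DESeq2, and of 21 genes of the miRNA pathway 0 in both tools, with 1 higher and 1 lower at an unadjusted p below 0.05. Of 30 glycolytic and muscle energy genes 1 was higher (3.33%, against 6.17% of all genes tested), the hexokinase gene hxk-1, at 26.6, 24.4 and 42 CPM at 270 min and 73.9, 91.3 and 76.4 CPM at 330 min (log2 change 1.32 ± 0.32 SE, adjusted p = 0.00767).

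The step was then compared with those before and after it, which share its libraries. The difference was signed, so a gene lies below another step if it rose less or fell more. The log2 change from 270 to 330 min was above that from 225 to 270 min in 9 genes (0.109%) and below it in 77 (0.93%). Of the 77, 19 were called higher at 330 min, 10 lower and 48 neither, and 15 held at most 3 counts at 225 min, so that their earlier change has no size. Against the change from 330 to 410 min, 128 genes (1.55%) were above and 58 (0.701%) below. Of the 128, 30 were called higher at 330 min, 9 lower and 89 neither, and 18 held at most 3 counts at 410 min. Of genes that passed at 330 min with a mean of at least 50 CPM, 27 were below the step before and 33 above the step after. The following examples were chosen after their values were seen.

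Some transcripts that rose to 330 min were near 0 at 225 min. Means are given with their SD over 3 libraries. The troponin I gene tni-1 averaged 0.818 ± 1.42 CPM at 225 min, 157 ± 122 CPM at 270 min and 585 ± 162 CPM at 330 min. The intermediate filament gene ifa-3 averaged 0 ± 0 CPM, 45 ± 23.2 CPM and 199 ± 50.3 CPM in the same order. The homeobox gene unc-42 (overlapping) averaged 0.943 ± 1.63 CPM, 84 ± 33.7 CPM and 229 ± 50.6 CPM at these times. Their 225 min levels are too low to give the earlier step a size, so no difference between the steps is given. Genes that peaked near 330 min differed from the step after. The NeuroD homologue cnd-1 averaged 112 ± 45.1 CPM at 270 min, 222 ± 23.2 CPM at 330 min and 56.3 ± 12.9 CPM at 410 min (log2 difference 2.96 ± 0.44 SE, adjusted p = 8.7e-05). In the same order egl-46 averaged 175 ± 82.1 CPM, 465 ± 103 CPM and 267 ± 31.3 CPM (log2 difference 2.16 ± 0.41 SE, adjusted p = 0.00257). For zig-4 the means were 49.6 ± 78.5 CPM, 331 ± 53.6 CPM and 53 ± 21.6 CPM (log2 difference 5.21 ± 1.04 SE, adjusted p = 0.0114). These 3 rose to 330 min and were lower at 410 min. The cell death regulator ces-2 averaged 97 ± 31.3 CPM, 718 ± 108 CPM, 463 ± 6.75 CPM and 11.8 ± 2.54 CPM from 225 to 410 min. Its step differed from the rise before it (log2 difference -3.48 ± 0.35 SE, adjusted p = 1.13e-07) and from the loss after it (log2 difference 4.60 ± 0.45 SE, adjusted p = 2.37e-08). In the opposite direction, lpr-5 averaged 58.3 ± 19.2 CPM at 330 min and 983 ± 112 CPM at 410 min, and its rise after 330 min exceeded that from 270 to 330 min (log2 difference -2.23 ± 0.60 SE, adjusted p = 0.0385).

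**Figure D5:**
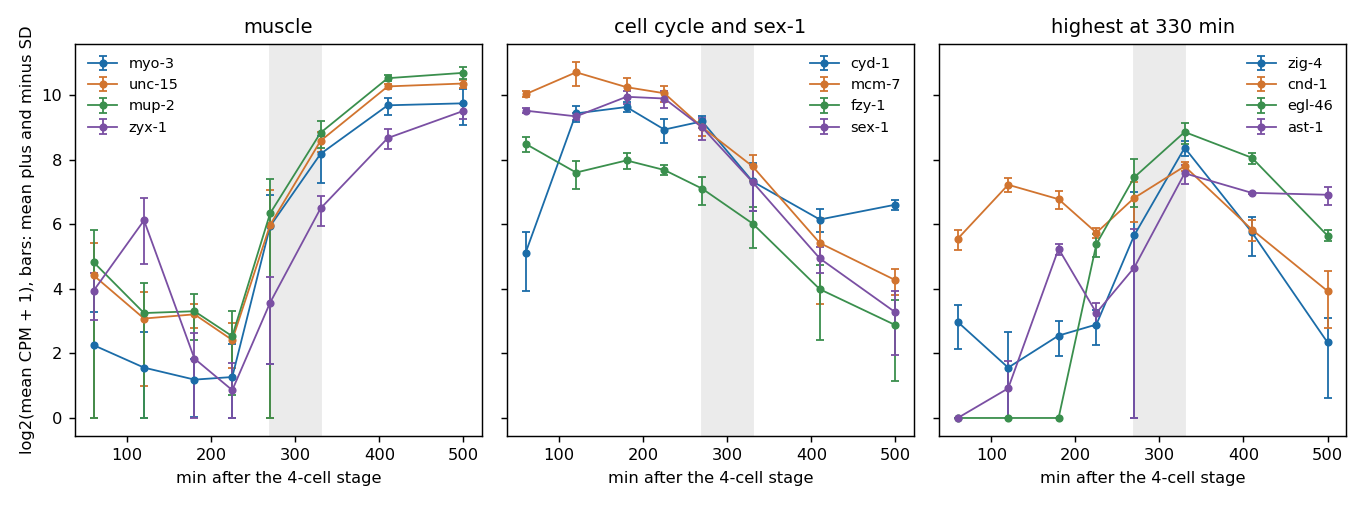
Mean level of 12 genes at the 8 stages, as log2(mean CPM + 1) against minutes after the 4-cell stage, with the 270 to 330 min interval shaded. Bars reach from the mean minus SD (held at 0 where negative) to the mean plus SD of 3 libraries. Muscle genes climb through the shaded interval and on to 410 min, cell cycle genes and sex-1 descend, and the genes in the right panel are at their highest mean at 330 min.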

How the data were processed

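The authors deposited raw counts per gene. HTSeq is the tool that the submitters' processing notes name. The aligner, genome build, annotation, counting strand and use of molecular identifiers were not given in the sources used here. Deposited counts were whole numbers with no value above 1023. A 5-base identifier has 1024 forms, and if such identifiers were counted, values near the limit would understate the molecules present. Of 20779 entries, 92 ERCC spike-ins were left out, and 20083 of 20687 worm entries matched the WBcel235 annotation (Ensembl release 115) by identifier. List members were held by gene ID. Genes whose exons overlap another gene on either strand were marked as overlapping (2688 of 8279 tested).

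Genes were tested with edgeR 4.0.16 (R 4.3.3; filterByExpr with a minimum count of 10 and total of 15, TMM, robust quasi-likelihood fit to all 24 libraries with stage as a factor, 16 residual degrees of freedom, two-sided, Benjamini-Hochberg adjusted p below 0.05). CPM were computed with the TMM-scaled library size. The fit was tested on simulated data. DESeq2 1.42.0 was an alternative. Libraries were placed by projecting log2 CPM (prior count 2) on the axis from 225 to 410 min. Lists are described by counts and medians, with no set test. The SE of a log2 change was derived from the F statistic of the quasi-likelihood test, so it includes the spread between libraries. Floors for 0 counts cover counting error only.

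Named genes passed the contrast, had no CPM overlap between stages, and averaged 50 CPM or more in whichever stage was higher. They are the 10 largest rises and falls, and from each list the largest changes, at most 4 in the direction of most calls and 1 against it. Members that did not pass are given with values only. The comparison, the members and the lists were chosen with earlier results of these data known. The alternatives were other scalings, filters, tools and fits, a replicate block and leaving out libraries; leaving out the 270 and 330 min libraries of a replicate together was added after seeing the data. All 24 data columns were used. No sequences are shown.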

Additional observations from a re-analysis of the deposited data

How the results depend on the processing

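Direction never changed among the 101 named genes, which were named only if their stages did not overlap, so fits that leave out libraries could hardly change it. Of their calls 100 were kept with a correction for identifier collisions, 90 with DESeq2, 63 with a fit to the 6 libraries and 34 with scaling to the spike-ins. DESeq2 size factors (570 higher, 107 lower), library size alone (481, 109), no filter (579, 96), DESeq2 (476, 90), the collision correction (509, 132), leaving out genes over 500 counts (465, 116) and summing replicates 1 and 2, which share a running sample number in the labels (435, 109; 76 of the 101 named calls kept), stayed within 1.5 times the 511 and 123 genes called. The fit to 6 libraries called 319 higher and a filter at a mean of 20 counts 336 higher; that filter also cut the genes higher at 410 than at 225 min to 1445. Spike-in scaling, which shifts all genes up, called 131 higher and 0 lower in edgeR, with 787 at an unadjusted p below 0.05, and 961 lower at 410 than at 225 min. The share of calls that were higher, 80.6% in the reported fit, was 100% with it. Leaving out 1 library of the step gave 204 (270 min replicate 2) to 580 (270 min replicate 3) genes higher and 43 (330 min replicate 2) to 194 (330 min replicate 3) lower. Leaving out a replicate series gave 9 to 507 higher and 3 to 113 lower, and leaving out only its 270 and 330 min libraries gave 153 higher and 18 lower (replicate 1), 85 and 15 (replicate 2), and 605 and 198 (replicate 3). Same-numbered libraries of 270 and 330 min deviated from their stage means with correlations of 0.372, 0.168 and -0.196 for replicates 1, 2 and 3, so the numbers were not taken as pairs. With a replicate block 666 genes were higher and 189 lower, and all 101 named calls were kept.

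Of the signed log2 changes, the 9 genes above the step before became 18 with DESeq2, 22 with no filter, 22 with the replicate block, 16 with replicates 1 and 2 summed and 0 with spike-ins; the 77 below it became 116 with the block and 7 with spike-ins. The 128 genes above the step after became 208 with library size alone, 75 with DESeq2 and 11 with spike-ins, and the 58 below it 32 with library size alone, 89 with the block and 1 with spike-ins. Leaving out single libraries or replicate series gave 0 to 12 genes above and 14 to 82 below the step before, and 38 to 133 above and 11 to 46 below the step after. Without the 270 and 330 min libraries of replicates 1, 2 and 3 these were 4, 6 and 13, then 56, 59 and 38, then 48, 69 and 79, and 21, 38 and 17. The causes were not tested. Library positions moved by less than the spread between replicates with a prior count of 0.5, with 4387 genes of a mean of at least 50 CPM and with the principal axis. Depth limits the calls of low genes: 13 genes called higher had 0 counts at 270 min and 34 had 1 to 3, and for these no fold is given.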

Other observations

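Genes with a known role in muscle but outside the lists, chosen after their values were seen, were also called higher. The samples were whole embryos, so the cells in which these genes rose are not known. The calmodulin-dependent kinase gene unc-43, which regulates muscle excitability, stood at 17.7, 31.9 and 62.3 CPM in replicates 1, 2 and 3 of 270 min and at 115, 160 and 116 CPM in those of 330 min (log2 change 1.67 ± 0.29 SE, edgeR adjusted p = 0.000368). The muscle LIM protein gene mlp-1 stood at 76.8, 103 and 164 CPM and at 304, 445 and 242 CPM (log2 change 1.47 ± 0.27 SE, adjusted p = 0.000594). Neither gene overlapped between stages. Chromosome genes outside the lists were also called lower. The cohesin gene scc-1 stood at 85.7, 105 and 90.3 CPM and at 27.5, 38.7 and 64 CPM (log2 change -1.03 ± 0.30 SE, adjusted p = 0.0248), and the chromatin assembly factor gene chaf-1 at 293, 266 and 273 CPM and at 167, 133 and 209 CPM (log2 change -0.68 ± 0.20 SE, adjusted p = 0.0303). In both genes replicate 3 was the highest 330 min library.

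The X chromosome held the highest share of genes called higher among the 6 chromosomes, 8.58% of 1119 tested, and chromosome III the lowest, 4.52% of 1461; the difference was not tested. The level of elt-2 in replicate 3 of 270 min, 285 CPM, was above the 36.1 to 77.4 CPM of the other 5 libraries, and the 225 min libraries averaged 182 ± 257 CPM (SD, n = 3).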
